A study of Mus musculus with 47 samples.

Results

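The libraries described are the 8 from kidneys of CAST/EiJ females, chosen by the strain, sex and diet in their titles, out of 47 in the series. CAST/EiJ is a wild-derived inbred mouse strain, and all 8 samples are labelled wild type with no further treatment. Of these, 4 came from females on a diet labelled 44% fat with fiber, which the series text calls high fat and high sugar, and 4 from females on the control diet labelled 10% fat with fiber. The diets began at 6 weeks of age and the kidneys, named metanephros in the labels, were taken at 15 weeks. The other groups used for comparison were CAST/EiJ males, C57BL/6J females and NZO/HlLtJ females on the same diets and at the same ages. For sex bias, C57BL/6J and NZO/HlLtJ males on 10% fat, of the same age, were compared with the females of their strain on that diet. The remaining male libraries of C57BL/6J and NZO/HlLtJ entered the fits only. Polyadenylated RNA was sequenced, and values are CPM, counts scaled to a common library size after TMM normalization, unless said otherwise. Nothing in the labels ties the libraries to separate mice. The p-values of genes refer to a spread within groups estimated over all 47 libraries, which may be partly technical. Those of the permutation tests refer to the 8 libraries alone.

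The proximal tubule reabsorbs most of what the glomerulus filters and burns fatty acids to do so, through enzymes that the lipid sensor PPAR alpha switches on. When its cells are stressed they shed their normal programme and make proteins such as KIM-1, encoded by Havcr1, and clusterin, which are read as signs of tubular injury. The mouse proximal tubule also differs strongly between the sexes, with many transporters and conjugating enzymes made at different levels in males and females.

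The total per library was 39.9 to 52.3 M counts, and the groups overlapped in this. Mitochondrial genes took 12.8% to 13.4% of counts on 10% fat and 12.7% to 13.3% on 44% fat, a difference within the spread (2-sided exact permutation p = 0.657, 0.743 adjusted over 4 measures of composition). The 10 highest genes took 15.7% to 17.2% and 15.1% to 15.9%, which also did not pass (exact permutation p = 0.0857, adjusted 0.343, where 0.0286 is the smallest p that 4 against 4 can give). Defining markers of the kidney were present in every library, with Lrp2 at 4939 to 7651 CPM, Umod at 4258 to 5634, Slc12a3 at 584 to 683 and Aqp2 at 116 to 186. Xist, at 863 to 1151 CPM, and Ddx3y, at 0.0702 or less, fitted the female label. One library, replicate 1 on 44% fat, stood apart from the other 7. Its summed urothelium markers came to 71.5 CPM against 13.9 to 23.7 in the others, its fibroblast and smooth muscle markers to 727 against 410 to 513, and its thick ascending limb markers to 8437 against 10140 to 10720. The calls that were lost without it are named with their values.

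Of 18786 genes tested, 27 (0.144%) differed between the diets in CAST/EiJ females at an adjusted p under 0.05. On 44% fat 20 genes were higher (0.106% of those tested) and 7 were lower (0.0373%). The largest rises were in Epo, Havcr1, Slc22a22, Clu and Ugt2b37, and the genes that fell included Cpn1, Nlrp6, Abcd4 and Upb1. At an unadjusted p under 0.05 there were 1638 genes (8.72%), 826 higher (4.4%) and 812 lower (4.32%). The 2 groups of libraries did not overlap for 14 of the 20 genes that rose, where 1.63% of all genes were that way round, and for 5 of the 7 that fell, where 1.75% were (3.39% in both directions); these genes were picked on the same libraries, so the shares are a description.

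**Figure D1:**
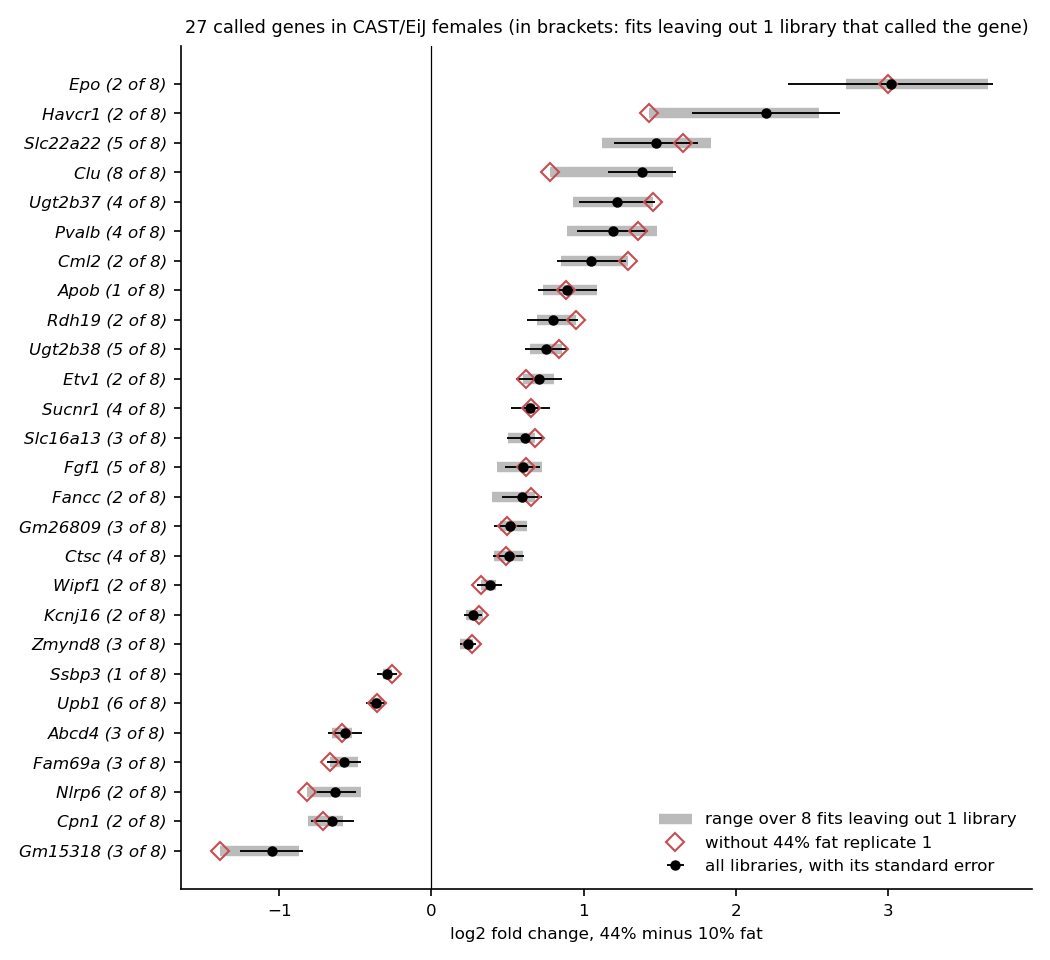
Log2 fold change of the 27 called genes, 44% minus 10% fat, in CAST/EiJ females (black points with standard errors), with the range over 8 fits that each leave out 1 library (grey bars) and the value without 44% fat replicate 1 (open diamonds). No bar crosses 0, and Clu is the gene called in 8 of 8 such fits.

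The number of calls moved with single libraries while the directions did not. It was 52 without replicate 1 on 44% fat, 74 without replicate 2 on 10% fat and 24 without replicate 1 on 10% fat. It was 7, 11 and 7 without replicates 2, 3 and 4 on 44% fat, and 4 and 3 without replicates 3 and 4 on 10% fat. Clu was called in all 8 of these fits, Upb1 in 6, and Slc22a22, Ugt2b38 and Fgf1 in 5 each; the other 22 were called in 1 to 4. Without replicate 1 on 44% fat, 21 of the 27 were still called. The 6 lost were Havcr1, Apob (log2 0.88, adjusted p = 0.0639), Etv1 (0.62, adjusted p = 0.0879), Gm26809 (0.50, adjusted p = 0.0598), Wipf1 (0.32, adjusted p = 0.0976) and Ssbp3 (-0.26, adjusted p = 0.0949). All 27 genes kept their direction in each of 20 other settings. The 27 calls used a spread estimated over all 47 libraries: with the CAST/EiJ libraries alone, or with these 8 alone, edgeR called 0 genes (1202 and 1084 at an unadjusted p under 0.05).

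Clu and Havcr1, called genes that are read as signs of tubular stress, did not overlap between the diets, by a narrow margin for Havcr1. Clu, which encodes the secreted chaperone clusterin (ENSMUSG00000022037, GRCm38 chromosome 14, 65968483 to 65981548), lay at 56.8, 55.8, 50.2 and 56.3 CPM in replicates 1 to 4 on 10% fat and at 314, 79.4, 89.6 and 113 on 44% fat. Every library on 44% fat was above every library on 10% fat, and replicate 1 was far above the rest. Its log2 fold change was 1.38 (SE 0.22, adjusted p = 0.00949), and 0.78 without that library (adjusted p = 0.00185). Havcr1 (ENSMUSG00000040405, chromosome 11, 46735080 to 46779578), the gene of the injury marker KIM-1, lay at 1.48, 0.923, 1.77 and 0.528 CPM on 10% fat and at 13.6, 6.41, 2.50 and 1.84 on 44% fat. The groups did not overlap, although replicate 4 on 44% fat was close to the highest control. The log2 fold change was 2.20 (SE 0.49, adjusted p = 0.0481) and 1.43 without replicate 1 on 44% fat, where it was no longer called (adjusted p = 0.197).

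Of 29 genes of tubular injury and repair, these 2 rose, none fell, and 25 had a positive fold change, where 9533 of all 18786 genes did. The median log2 fold change of the list was 0.117, where that of all genes was 0.002, and it was -0.007 without replicate 1 on 44% fat. The list's median was 0.269 in CAST/EiJ males, 0.081 in C57BL/6J females and 0.25 in NZO/HlLtJ females. Lcn2, which encodes the iron-carrier binding protein NGAL, shows the part of that library: it lay at 18.4 CPM there and at 0.657 to 1.61 in the other 3 libraries on 44% fat, with 0.383 to 1.09 on 10% fat. It was not called (log2 2.34, adjusted p = 0.160, and 0.32 without that library). Spp1, which encodes osteopontin, had 2716 CPM there, 1715 to 1816 in the other 3 and 1278 to 1591 on 10% fat (log2 0.41, adjusted p = 0.273). In the other 3 libraries on 44% fat the urothelium sum was 13.9 to 20.7 CPM, with 20.4 to 23.7 on 10% fat. The fibroblast and smooth muscle sum was 513, 410 and 427 CPM in replicates 2 to 4 on 44% fat, with 466 to 494 on 10% fat. The part of the urothelium and fibroblast RNA in the values of the injury genes was not tested.

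**Figure D2:**
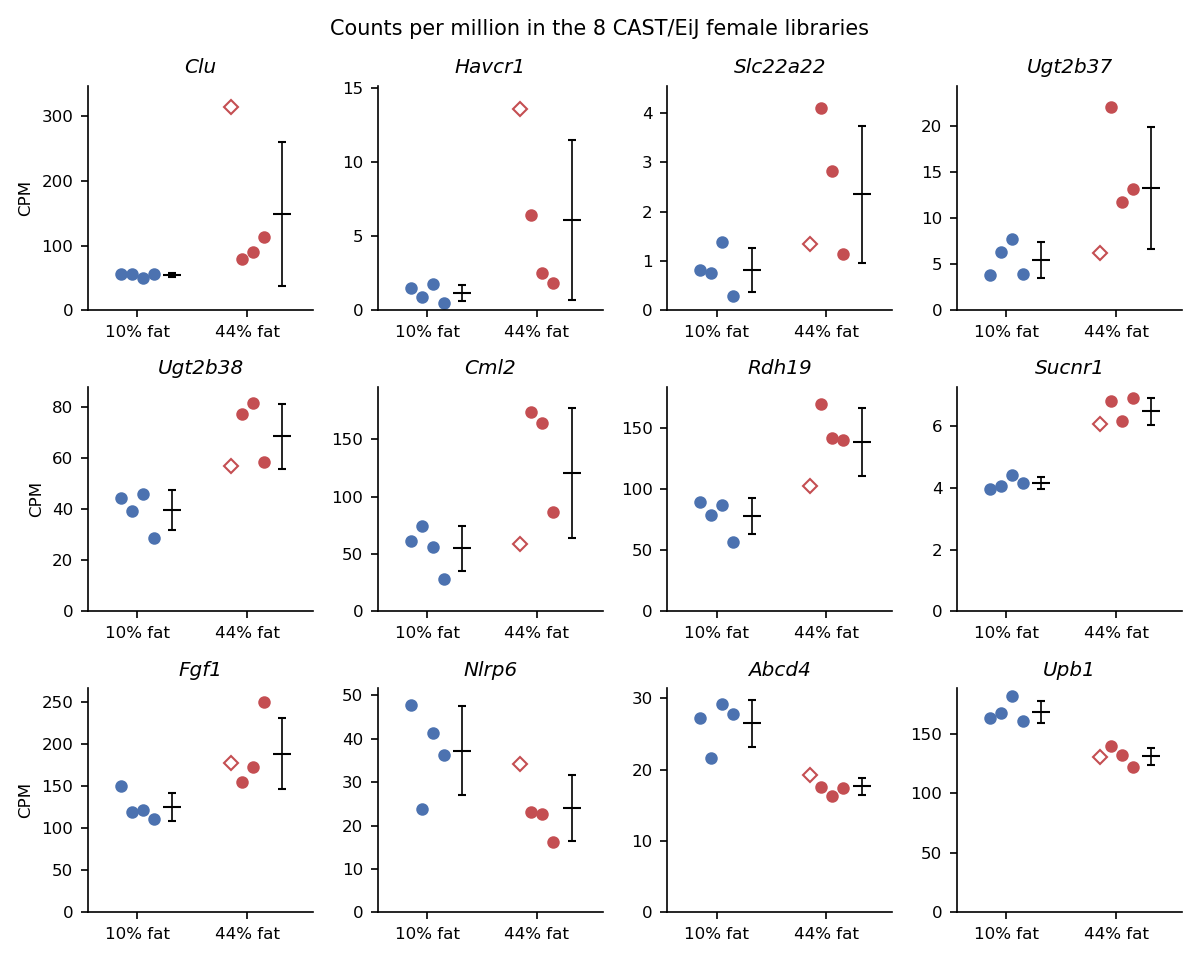
CPM of 12 genes in the 8 CAST/EiJ female libraries, each panel from 0, with 10% fat in blue and 44% fat in red; open diamonds mark 44% fat replicate 1 and black bars the mean with the SD of 4 libraries. For Clu, Havcr1, Ugt2b38, Rdh19, Sucnr1, Fgf1, Abcd4 and Upb1 the groups do not overlap.

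Of 28 genes of xenobiotic and steroid metabolism, Ugt2b38 rose, 0 fell and 17 had a positive fold change, with a median of 0.1. Of 21 genes of organic ion and drug transport 0 were called, with a median of 0.106, and of 17 genes of amino acid transport 0 were called, with a median of -0.077. The genes that follow are given singly, as calls. Ugt2b37 and Ugt2b38 encode UDP-glucuronosyltransferases, which attach glucuronic acid to steroids and other lipophilic compounds. Ugt2b38 (ENSMUSG00000061906, chromosome 5, 87409942 to 87424203) lay at 44.4, 39.5, 46.0 and 28.8 CPM on 10% fat and at 56.8, 77.3, 81.6 and 58.7 on 44% fat, with no overlap (log2 0.76, SE 0.14, adjusted p = 0.0171). Ugt2b37 (ENSMUSG00000057425, chromosome 5, 87240493 to 87254804) lay at 3.84, 6.32, 7.72 and 3.93 CPM on 10% fat and at 6.20, 22.1, 11.7 and 13.1 on 44% fat. Replicate 1 on 44% fat lay below 2 controls, so the groups overlapped (log2 1.22, SE 0.25, adjusted p = 0.0323).

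Sharing of sequence limits how far these genes can be told apart. Of the 31-base words of the GENCODE M21 transcripts, Ugt2b38 shared 52.9% and Ugt2b37 34.4% with transcripts of other genes, Ugt2b5 first among them. The letters upstream of their starts were close to each other as well. With Ugt2b37 shifted by 14 bases against Ugt2b38 and no gaps, 222 of 236 bases were the same (94.1%). They are shown beside those of Sucnr1, which also rose, and Nlrp6, which fell, since these 4 of the 19 called genes with a promoter entry held the AP-1 letters TGANTCA (capitals; the letters read on both strands). Each line gives the 250 bases before the start in RefSeq, 5′ to 3′ on the gene's strand, and 6.75% of 32851 such windows held those letters. On GRCm38.p6 the windows are chr5:87254789-87255038 (minus strand) for Ugt2b37, chr5:87424204-87424453 (minus strand) for Ugt2b38, chr3:60081619-60081868 (plus strand) for Sucnr1 and chr7:140920652-140920901 (plus strand) for Nlrp6. A match of letters is a description and no site.
Ugt2b37: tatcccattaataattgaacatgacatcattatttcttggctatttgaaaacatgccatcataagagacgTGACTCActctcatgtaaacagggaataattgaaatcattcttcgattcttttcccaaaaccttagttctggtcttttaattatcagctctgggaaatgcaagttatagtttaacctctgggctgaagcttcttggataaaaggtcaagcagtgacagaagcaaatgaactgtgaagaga
Ugt2b38: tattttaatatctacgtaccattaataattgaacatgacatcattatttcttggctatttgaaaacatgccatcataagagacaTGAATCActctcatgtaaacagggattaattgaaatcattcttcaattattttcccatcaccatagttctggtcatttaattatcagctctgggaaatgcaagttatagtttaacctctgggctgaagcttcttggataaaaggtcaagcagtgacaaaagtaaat
Sucnr1: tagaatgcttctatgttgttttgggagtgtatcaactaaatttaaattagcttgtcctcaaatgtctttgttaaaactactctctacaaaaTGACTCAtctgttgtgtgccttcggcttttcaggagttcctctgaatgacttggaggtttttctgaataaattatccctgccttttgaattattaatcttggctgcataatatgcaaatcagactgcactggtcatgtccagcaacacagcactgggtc
Nlrp6: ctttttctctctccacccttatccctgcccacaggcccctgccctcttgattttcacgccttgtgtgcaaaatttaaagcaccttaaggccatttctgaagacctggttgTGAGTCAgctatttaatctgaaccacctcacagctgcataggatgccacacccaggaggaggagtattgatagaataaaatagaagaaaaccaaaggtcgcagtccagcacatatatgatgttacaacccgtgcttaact

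In the same windows of the 19 called genes, the sterol response letters TCACNCCAC stood in 2, Epo and Ctsc, against 1.05% of all windows. The window of Epo begins 47426 bases from the gene start used here. The direct repeat of PPAR, the heat shock element, the E-box CACGTG, the antioxidant response letters TGACNNNGC and the cAMP response letters TGACGTCA stood in 0 of 19, where 0.0335%, 0.466%, 6.02%, 10.2% and 1.55% of all windows held them. All motifs were searched on both strands, and no overlap between different motifs was removed.

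Cml2, of a family of N-acetyltransferases, lay at 61.4, 74.6, 56.2 and 28.0 CPM on 10% fat and at 58.7, 174, 164 and 86.9 on 44% fat. Again replicate 1 on 44% fat fell among the controls (log2 1.05, SE 0.23, adjusted p = 0.0440), and 27.9% of its sequence words were shared, mainly with Nat8f4. Slc22a22, which encodes a renal transporter of prostaglandins, had 0.824, 0.762, 1.39 and 0.299 CPM on 10% fat and 1.35, 4.09, 2.82 and 1.14 on 44% fat. It was higher on 44% fat by 1.47 log2 units (SE 0.28, adjusted p = 0.0171), though replicate 3 on 10% fat exceeded 2 of the treated libraries. Slc22a22 was lower, and more variable for its level, in CAST/EiJ females than in the other females. The mean on 10% fat was 0.819 CPM (SD 0.447), against 37.7 (SD 1.15) in C57BL/6J and 134 (SD 7.69) in NZO/HlLtJ females. In edgeR with these 8 libraries alone its adjusted p was 0.775. Sucnr1, the receptor for succinate, was at 3.95 to 4.41 CPM in the controls and at 6.04 to 6.88 on 44% fat, and its rise was among the most even (log2 0.65, SE 0.13, adjusted p = 0.0171). Slc16a13, of the monocarboxylate transporter family, was at 37.4 to 54.3 and 61.1 to 83.7 CPM (log2 0.61, SE 0.12, adjusted p = 0.0171).

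Rdh19, of the retinol dehydrogenase family, lay at 89.6, 78.9, 86.65 and 56.99 CPM on 10% fat and at 102, 170, 142 and 140 on 44% fat. The groups did not overlap (log2 0.80, SE 0.17, adjusted p = 0.0356), and 32.1% of its sequence words were shared with relatives such as Rdh16f1. Apob, which encodes the structural protein of lipoproteins, rose from 12.01 to 24.8 CPM over the controls to 27.7 to 46.9 on 44% fat (log2 0.89, SE 0.19, adjusted p = 0.0440). It was called in 1 of the 8 fits that leave out a library, and not in that without replicate 1 on 44% fat (adjusted p = 0.0639). Apob is also on the list of 11 hepatocyte markers. These summed to 29.2 to 34.1 CPM on 10% fat and 44.1 to 60.0 on 44% fat without overlap, Apob included. Apob, already called, made up a large part of these sums, so their lack of overlap is not separate from its call. Of the 11 markers 6 had a positive and 5 a negative fold change. F2, which encodes prothrombin, was at 0.623 to 0.899 and 1.21 to 1.61 CPM (log2 0.83, adjusted p = 0.445). The list's defining gene Alb overlapped, being at 2.19 to 6.82 CPM on 10% fat and at 1.21 to 7.86 on 44% fat.

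These genes do not share 1 direction of sex bias. In C57BL/6J on 10% fat, groups outside the diet contrast, 7 of the 20 genes that rose were higher in males, where 18.1% of all genes were, and 6 were higher in females, where 17.6% were. Ugt2b37 (log2 7.41 males minus females), Ugt2b38 (3.73), Cml2 (2.20), Sucnr1 (2.12), Slc22a22 (1.82) and Etv1 (0.98) were among the first. Rdh19 (-4.11) was among the second. In NZO/HlLtJ on 10% fat, 7 of the 20 were higher in males, where 19.7% of all genes were. There 9 were higher in females, where 18.7% of all genes were.

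The hormone and growth factor genes that rose lay at very different levels. Epo, the gene of erythropoietin, which interstitial cells of the kidney make when oxygen is short, was close to the limit of detection, with 0, 0.162, 0.383 and 0.115 CPM on 10% fat and 0.441, 1.47, 0.591 and 2.22 on 44% fat. Each treated library was above each control (log2 3.02, SE 0.67, adjusted p = 0.0440). The call was lost in 6 of the 8 fits that leave out a library (adjusted p up to 0.249), with no run term (0.149), with no filter (0.0655) and with limma-voom (0.0724), and 8.91% of its sequence words were shared with Gnb2. Fgf1, a fibroblast growth factor, lay at 150, 119, 122 and 111 CPM on 10% fat and at 178, 155, 173 and 250 on 44% fat, without overlap (log2 0.60, SE 0.12, adjusted p = 0.0171). Etv1, a transcription factor of the ETS family, was at 10.02 to 15 and 16.2 to 24.8 CPM (log2 0.70, SE 0.15, adjusted p = 0.0406). It was called in 2 of the 8 fits that leave out a library, and not in that without replicate 1 on 44% fat (adjusted p = 0.0879).

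Among the other genes that rose was Pvalb, which encodes the calcium-binding protein parvalbumin of the distal convoluted tubule. It went from 0.322 to 0.862 CPM to 0.836 to 2.21, with 1 treated library inside the control range (log2 1.19, SE 0.24, adjusted p = 0.0187). Its mean on 10% fat was 0.589 CPM (SD 0.226), against 15.1 (SD 0.48) in C57BL/6J and 52.05 (SD 2.2) in NZO/HlLtJ females. In edgeR with these 8 libraries alone its adjusted p was 0.62. Fancc, a gene of the Fanconi anemia DNA repair pathway, was at 16.6 CPM in replicate 1 on 10% fat, 33.8 to 34.9 in the other controls and 36.2 to 49.8 on 44% fat (log2 0.59, adjusted p = 0.0391). The 5 remaining genes fell outside the rule for names and are given because all calls are accounted for: Ctsc, the protease cathepsin C (log2 0.51, adjusted p = 0.0221), Wipf1, an actin regulator (0.38, adjusted p = 0.0391), Kcnj16, a potassium channel subunit of the distal nephron (0.27, adjusted p = 0.0391), Zmynd8, a chromatin reader (0.24, adjusted p = 0.0440), and the predicted gene Gm26809 (0.52, adjusted p = 0.0356).

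The 7 genes that fell had log2 fold changes of -0.29 to -1.05. Upb1, which encodes the last enzyme of pyrimidine breakdown, lay at 163, 168, 181 and 161 CPM on 10% fat and at 130, 139, 132 and 122 on 44% fat. The groups were well apart, and the log2 fold change was -0.36 (SE 0.07, adjusted p = 0.0171). Abcd4, whose product moves vitamin B12 out of lysosomes, lay at 27.2, 21.7, 29.2 and 27.8 CPM on 10% fat and at 19.3, 17.6, 16.4 and 17.4 on 44% fat (log2 -0.57, SE 0.11, adjusted p = 0.0171). Nlrp6, an inflammasome sensor, lay at 47.9, 23.8, 41.2 and 36.1 and at 34.3, 23.2, 22.6 and 16.2 CPM, with replicate 2 of the controls at the level of the treated libraries (log2 -0.63, SE 0.14, adjusted p = 0.0391).

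Cpn1, the catalytic subunit of carboxypeptidase N, was at 6.78 CPM in replicate 1 on 10% fat, 11.1 to 11.8 in the other controls and 6.15 to 6.99 on 44% fat (log2 -0.65, adjusted p = 0.0428). Fam69a (-0.57, adjusted p = 0.0171) and Ssbp3 (-0.29, adjusted p = 0.0440), which encodes a single-stranded DNA binding protein, fell without overlap, as did the predicted gene Gm15318 (-1.05, adjusted p = 0.0171). Next by unadjusted p but not called were Zbtb48 (-0.69, adjusted p = 0.0651), Fbxo21 (-0.48), Shf (-0.44) and Pex19 (-0.24), each of the last 3 with an adjusted p of 0.0723.

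Sample ID numbers fall in 3 runs, 77, 81 and 89, whose meaning the labels do not give, and each run held both diets. With a pseudocount of 0.1 CPM, the ratio of mean CPM had the same sign as the fitted change in all 3 runs for 18 of the 20 genes that rose and 6 of the 7 that fell, where 24.6% of all genes did so. The called genes were picked on the same libraries, so these counts are a description. The exceptions lay close to 0 in run 77: Pvalb (log2 -0.04), Cml2 (-0.06) and Cpn1 (0.04). Without run 77 there were 45 calls, without run 81 there were 8, and without run 89, which held 3 of the 8 libraries, there were 0 (852 at an unadjusted p under 0.05).

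**Figure D3:**
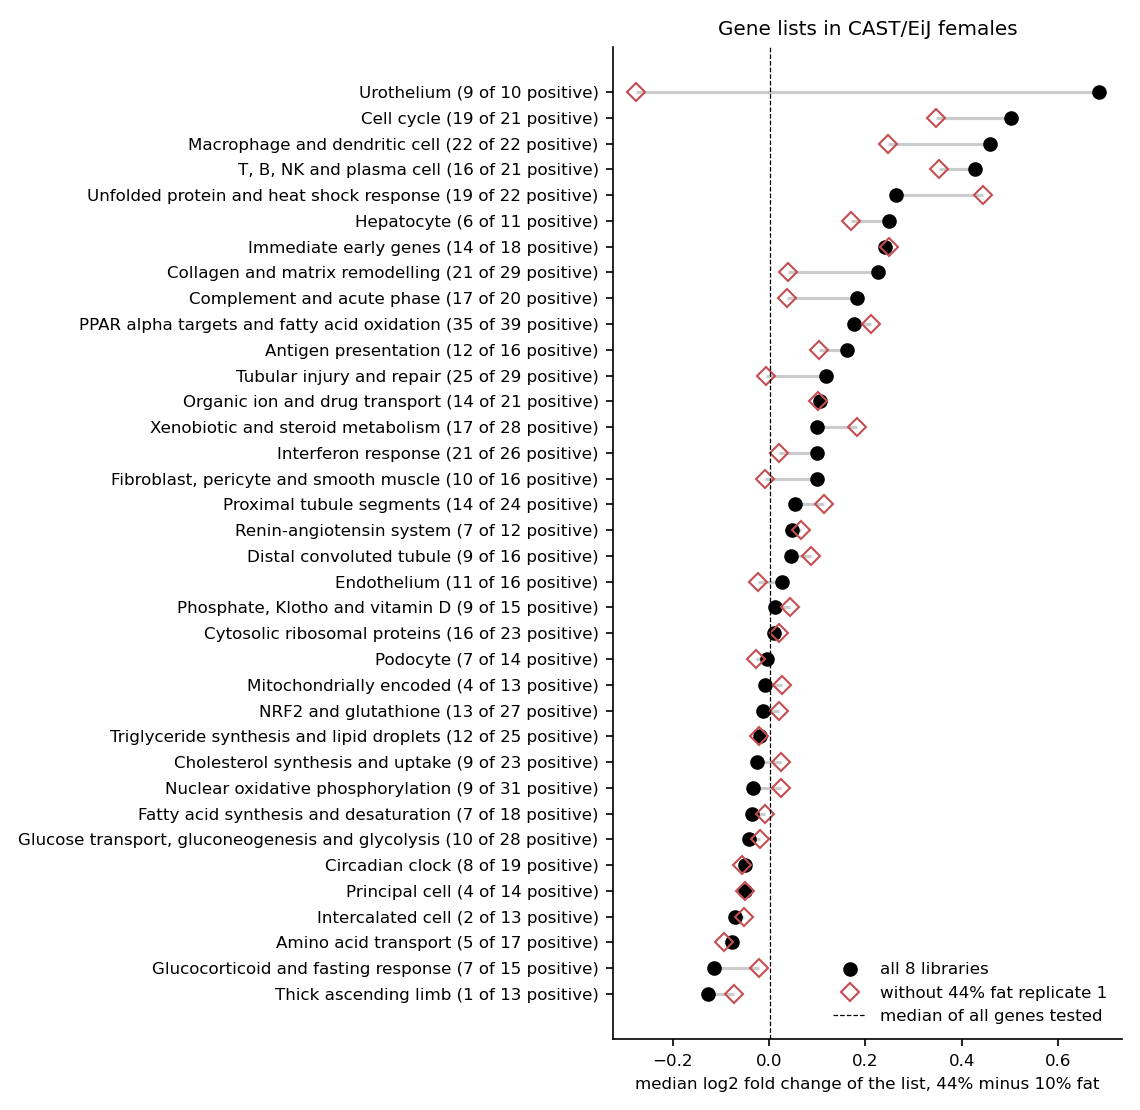
Median log2 fold change of 36 gene lists, 44% minus 10% fat, in CAST/EiJ females with all libraries (black) and without 44% fat replicate 1 (open diamonds); the dashed line is the median of all genes tested, 0.002. The urothelium list falls from 0.685 to -0.276 without that library, while the PPAR alpha list stays at 0.177 to 0.212.

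None of 39 genes that burn fatty acids or answer to PPAR alpha passed the test, but 35 had a positive fold change, where 9533 of all 18786 genes did. The list's median was 0.164 in CAST/EiJ males, 0.148 in C57BL/6J females and 0.057 in NZO/HlLtJ females. In CAST/EiJ females the median was 0.177, and 0.212 without replicate 1 on 44% fat, where all genes had 0.002. The smallest p belonged to Ucp2, a mitochondrial carrier, at 53.6, 64.2, 65.2 and 57.3 CPM on 10% fat and 84.1, 78.7, 72.96 and 70 on 44% fat (log2 0.36, adjusted p = 0.121), with no overlap. Vnn1, the pantetheinase vanin, was at 33.7 to 59.8 and 58.1 to 75.3 CPM (log2 0.61, adjusted p = 0.202). Plin2, the coat protein of lipid droplets, was at 36.3 to 52.9 and 47.8 to 67.8 CPM (log2 0.42, adjusted p = 0.202). Fabp1, a fatty acid carrier, stayed under 2 CPM but was higher in each treated library (0.131 to 0.459 and 0.581 to 1.53 CPM, log2 1.83, adjusted p = 0.232).

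The 25 genes of triglyceride synthesis and lipid droplets also gave 0 calls, with 12 positive and a median of -0.020. Mogat1, which acylates monoacylglycerol, came nearest, at 6.86 to 11.0 and 12.1 to 15.2 CPM (log2 0.58, adjusted p = 0.0738). Fatty acid synthesis gave 0 calls among 18 genes, with 11 negative; Fasn, fatty acid synthase, was at 186 to 279 and 124 to 212 CPM (log2 -0.45, adjusted p = 0.264), and Scd1, a desaturase, had -0.51 (adjusted p = 0.467). Of 28 genes of glucose transport and metabolism 0 were called and 18 were negative. Slc5a2, the gene of the glucose transporter SGLT2, was at 450 to 554 CPM on 10% fat and 369 to 449 on 44% fat (log2 -0.24, adjusted p = 0.264), and Slc5a8, a lactate transporter, had -0.37 (adjusted p = 0.160).

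Macrophage and lymphoid markers were higher on 44% fat in sum, with 0 genes called, while the 5 neutrophil and mast cell markers overlapped (2.1 to 3.12 and 2.43 to 5.09 CPM). Their median was 0.306, and -0.084 without replicate 1 on 44% fat. All 22 macrophage and dendritic cell markers had a positive fold change, with a median of 0.458 and 0.246 without replicate 1 on 44% fat. Their median was 0.41 in CAST/EiJ males, -0.004 in C57BL/6J females and 0.488 in NZO/HlLtJ females. In CAST/EiJ females their summed level was 188 to 203 CPM on 10% fat and 209 to 299 on 44% fat, so the groups did not overlap. Csf1r, the receptor of macrophage colony-stimulating factor, was the most even, at 87.7 to 90.9 and 102 to 106 CPM (log2 0.23, adjusted p = 0.414). It made up a large part of the summed level. Cd14, a coreceptor for lipopolysaccharide, was at 21.7 CPM in replicate 1 on 44% fat, 6.89 to 9.53 in the other 3 and 5.25 to 6.99 on 10% fat (log2 0.85, adjusted p = 0.202). In bulk tissue, a change in the number of cells of a type and a change in RNA per cell cannot be told apart.

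Lymphoid and plasma cell markers summed to 29.6 to 52.1 CPM on 10% fat and 77.5 to 133 on 44% fat, and 16 of 21 had a positive fold change, with a median of 0.427. Their median was 0.468 in CAST/EiJ males, 0.102 in C57BL/6J females and 0.945 in NZO/HlLtJ females. Immunoglobulin genes were the clearest members. Igha, the constant region of IgA, lay at 11.3, 19.7, 7.5 and 5.44 CPM on 10% fat and at 47.8, 67.9, 52.4 and 34.9 on 44% fat. Every treated library was above every control, yet the gene was not called (log2 2.16, SE 0.69, adjusted p = 0.276). Igha made up a large part of the lymphoid and plasma cell sums, so their lack of overlap is not separate from its own. Jchain, which joins IgA and IgM into polymers, had 1.98 (adjusted p = 0.429) and Igkc, the kappa light chain, 1.83 (adjusted p = 0.494), both without overlap. Immunoglobulin genes share sequence with one another, so their counts are uncertain.

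Of 21 cell cycle genes 0 were called and 19 were positive, with a median of 0.503 and 0.346 without replicate 1 on 44% fat. The list's median was 0.372 in CAST/EiJ males, 0.299 in C57BL/6J females and 0.643 in NZO/HlLtJ females. Bub1, a mitotic checkpoint kinase, was at 0.112 to 0.240 and 0.318 to 1.02 CPM (log2 1.57, adjusted p = 0.216). Top2a, a topoisomerase of dividing cells, was at 2.32 to 2.81 and 2.80 to 6.74 CPM (log2 0.71, adjusted p = 0.636).

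**Figure D4:**
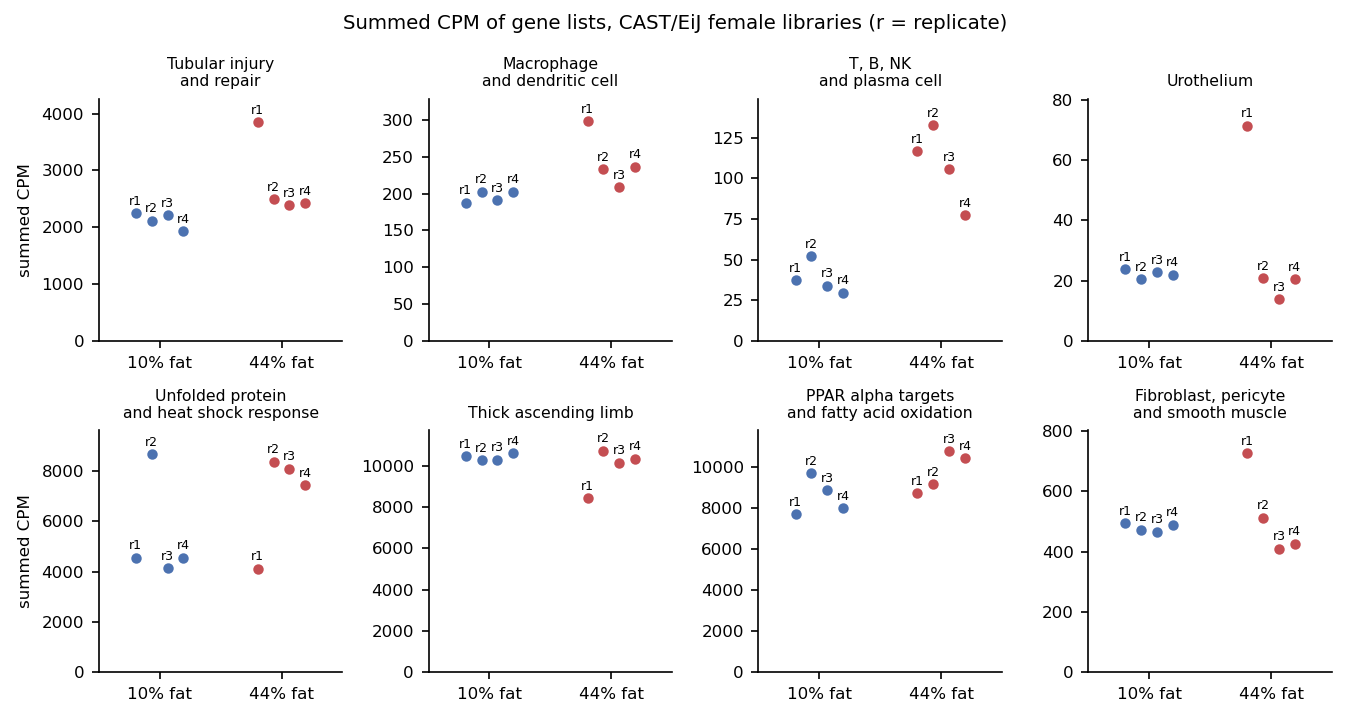
Summed CPM of 8 gene lists in each CAST/EiJ female library, labelled r1 to r4 within each diet, each panel from 0. The macrophage, lymphoid and injury sums do not overlap between diets, and Spp1, which was not called, makes up the larger part of the injury sum. Csf1r and Igha, also not called, make up a large part of the macrophage and lymphoid sums. Library r1 on 44% fat stands apart in urothelium, fibroblast, injury and thick ascending limb genes. The unfolded protein sum is high in 10% fat r2 and in 44% fat r2 to r4.

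Chaperones of the unfolded protein and heat shock response divided the libraries by a line other than diet. Their summed level was 7438 to 8665 CPM in replicates 2, 3 and 4 on 44% fat and replicate 2 on 10% fat. In the other 4 libraries it was 4114 to 4553 CPM. Of the high libraries, replicates 2 and 3 on 44% fat and replicate 2 on 10% fat were of ID run 81. Replicate 4 on 44% fat was of run 89, as were replicates 3 and 4 on 10% fat in the low set. Run 77 was low in both diets. Of the 22 genes 0 were called and 19 were positive, with a median of 0.264, and 0.444 without replicate 1 on 44% fat. Hsp90b1, a chaperone of the endoplasmic reticulum, lay at 732, 947, 592 and 641 CPM on 10% fat and at 740, 1020, 1080 and 1055 on 44% fat (log2 0.40, adjusted p = 0.250). Pdia6 (0.35, adjusted p = 0.192), Pdia4 (0.40, adjusted p = 0.264) and Sdf2l1 (0.76, adjusted p = 0.283) followed the same division.

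The same libraries were high in Cry1. This gene, a repressor of the clock chosen after its values were seen, lay at 3.92, 11.0, 2.97 and 4.69 CPM on 10% fat and at 3.11, 12.4, 19.0 and 7.90 on 44% fat (log2 0.82, adjusted p = 0.516). Nr1d1, which encodes the clock repressor REV-ERB alpha, was instead lower on 44% fat in every library, at 95.1 to 163 and 47.3 to 84.9 CPM (log2 -0.78, adjusted p = 0.0764). Of 19 clock genes 0 were called, with 8 positive and a median of -0.050. Times of collection are not in the labels, and the part of these times and of the ID runs in these values was not tested.

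Lists of tubule segments moved little. Of 13 thick ascending limb genes 12 were negative, with a median of -0.127, and -0.073 without replicate 1 on 44% fat; Slc12a1, the sodium-potassium-chloride cotransporter, had -0.28 (adjusted p = 0.336). Of 16 distal convoluted tubule genes Pvalb alone was called, and Calb1, a calcium buffer, was at 112 to 135 and 141 to 202 CPM (log2 0.51, adjusted p = 0.195). Of 12 renin-angiotensin genes 0 were called. Ren1, renin, lay at 143, 136, 133 and 123 CPM on 10% fat and at 179, 157, 208 and 211 on 44% fat, without overlap (log2 0.49, SE 0.12, adjusted p = 0.0789).

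Against CAST/EiJ males, where the same contrast called 109 genes (0.58%; 0.277% higher and 0.303% lower, and 12.3% at an unadjusted p under 0.05), 9 genes (0.0479%) differed in their response to diet. In females the response was higher for 3 (0.016%) and lower for 6 (0.0319%), and 1457 genes (7.76%) had an unadjusted p under 0.05. Ugt2b38 was 1 of them. In males it lay at 593 to 733 CPM on 10% fat and 411 to 563 on 44% fat, a log2 change of -0.49 (SE 0.15) where females had 0.76, and the difference was 1.24 (SE 0.20, adjusted p = 0.00865). Slc10a1, a bile acid transporter, went from 6.61 to 14.0 CPM to 2.46 to 3.74 in males, while in females it was 3.51 to 11.7 and 6.23 to 28.7 (difference 2.23, SE 0.45, adjusted p = 0.0471).

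The 6 genes with lower responses in females were all called higher on 44% fat in males. Slc22a8, the organic anion transporter OAT3, went from 210 to 244 CPM to 331 to 565 in males and was 655 to 810 and 615 to 837 in females (difference -0.88, SE 0.16, adjusted p = 0.0259). Gsto1 (-0.69), Gstt3 (-0.53), Lzts2 (-0.53) and Scnn1b (-0.50) had an adjusted p of 0.0471 each; the first 2 encode glutathione transferases and the last a subunit of the epithelial sodium channel. Iqch (3.02, adjusted p = 0.0471) lay at 1.35 CPM or less in every library of the strain. Serpinb9b was at 0 in all 3 male controls and at most at 0.970 CPM elsewhere in the strain, so its fitted difference gives no usable fold. The count of 9 rested on the males' libraries too: it was 0 without replicate 2 of the males on 10% fat, 1 without replicate 1 or 2 of the males on 44% fat, and 18 without replicate 1 of the females on 44% fat.

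**Figure D5:**
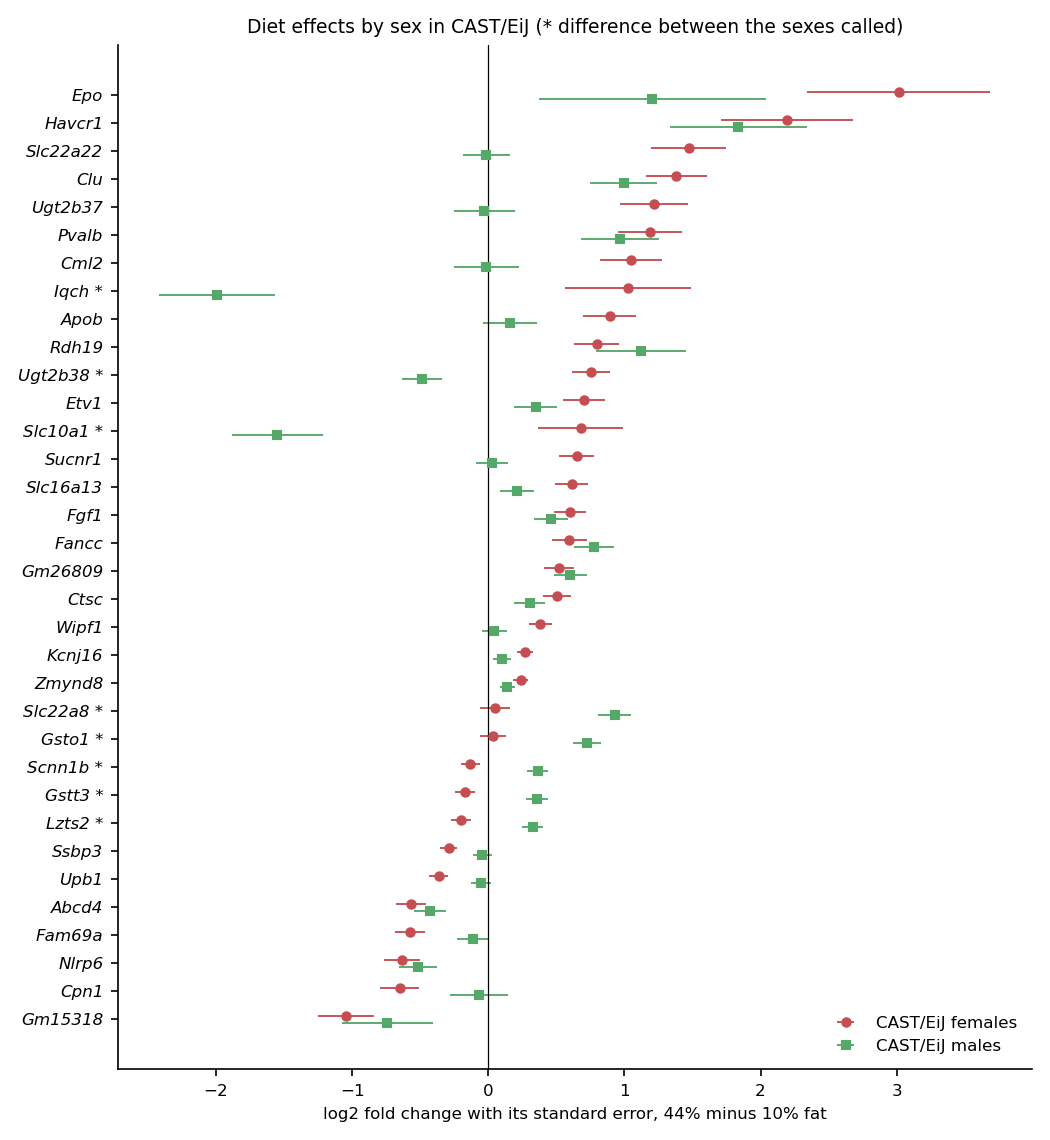
Log2 fold change of diet with its standard error in CAST/EiJ females (red circles) and males (green squares) for the 27 genes called in females and the genes called for a difference between the sexes (asterisks), without Serpinb9b. Ugt2b38 is at 0.76 in females and -0.49 in males, and Slc22a8 at 0.05 and 0.93.

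For the other called genes no difference between the sexes was shown, although for some the male value was near 0. Of the 20 genes that rose in females 16 had a positive change in males, where 55.2% of all genes positive in females did, and 3 were called there too, where 0.441% were: Clu (0.99, adjusted p = 0.0486), Fancc (0.78, adjusted p = 0.00559) and Gm26809 (0.60, adjusted p = 0.00848). All 7 that fell were negative in males, where 57% of genes negative in females were. Havcr1 had 1.84 in males (adjusted p = 0.0758). Slc22a22 (-0.01), Ugt2b37 (-0.03), Cml2 (-0.01) and Sucnr1 (0.03) were near 0 in males, where their levels were higher, and the differences between the sexes were 1.49 (adjusted p = 0.0942), 1.247 (0.273), 1.06 (0.421) and 0.62 (0.310).

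Against the females of the other strains few differences were called. In C57BL/6J females edgeR gave 0 calls for diet (702, 3.74%, at an unadjusted p under 0.05), and 1 gene (0.00532%) differed in its response from CAST/EiJ females, with 973 (5.18%) at an unadjusted p under 0.05. Inmt, which encodes an indolethylamine N-methyltransferase, lay at 53.01, 57.95, 81.4 and 94.4 CPM on 10% fat and at 26.4, 37.3, 46.5 and 18.6 on 44% fat in CAST/EiJ females. It was lower in every treated library (log2 -1.26, adjusted p = 0.0747), while C57BL/6J females had 20.2 to 44.1 and 29.7 to 140 CPM (log2 1.32). The difference was -2.58 (SE 0.41, adjusted p = 0.00850); without replicate 4 of the C57BL/6J females on 10% fat 0 genes were called.

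Against NZO/HlLtJ females, in which 28 genes (0.149%; 0.112% higher and 0.0373% lower, and 9.68% at an unadjusted p under 0.05) were called, edgeR called 0 differences in response (1337, 7.12%, at an unadjusted p under 0.05), limma-voom 7 and DESeq2 29. Of the 20 genes that rose in CAST/EiJ females, 16 were positive in C57BL/6J females, where 55.1% of all genes positive in CAST/EiJ females were, and 12 in NZO/HlLtJ females, where 53.4% were. None of the 20 was called in either. Clu had a log2 change of 0.12 in C57BL/6J and 0.26 in NZO/HlLtJ females, and Havcr1 had -0.73 and -0.06. Neither gene was called for a difference between the strains. Their mean CPM on 10% fat was lower in CAST/EiJ females. Clu had a mean of 54.8 CPM there, 205 in C57BL/6J and 227 in NZO/HlLtJ females, and Havcr1 had 1.18, 2.24 and 2.04. Levels were not tested between strains, and the part of mapping to the build GRCm38 in them was not tested. On 44% fat, replicates 2 to 4 of CAST/EiJ females had 79.4 to 113 CPM of Clu, below those control means, and replicate 1 had 314.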

How the data were processed

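The authors deposited expected counts per gene for 22474 genes and a variance-stabilized matrix on a log2 scale; per the submitters' processing notes the build was GRCm38 and DESeq2 was used, and the aligner and counter are not given in the sources used here. Reads were paired, 100 bp long, with a target of 30 M pairs, per the labels. Expected counts (25.9% not whole) were rounded. Genes passing filterByExpr over 12 groups were kept (18786, with 3688 set aside) and scaled by TMM. With edgeR 4.0.16 (R 4.3.3), robust quasi-likelihood models were fitted to 47 libraries with a mean per group and a term for ID run; a call is a Benjamini-Hochberg adjusted p under 0.05 over all genes tested. Replicate numbers follow accession order and pair nothing. Each of the 12 pairs of replicates within the CAST/EiJ female groups differed by more than sampling noise. Alternatives were other scaling, no filter, no run term, DESeq2 1.42.0, limma 3.58.1 (voom, and on the deposited log2 matrix), fewer libraries, and each library or run left out. The run omissions and the comparison of males with females were added after values were seen. Named genes are the 15 highest and 15 lowest calls with a mean of at least 10 counts in a group, filled up to 10 a direction, the 5 highest and lowest differences, and up to 4 members of each list. Members and lists were chosen with earlier results of these data known. The fits were tested on simulated data with 1 spread per gene for all groups. That test cannot show how unequal spread between groups acts on the calls. Promoter letters and 31-base words came from RefSeq and GENCODE tables; 19 of 27 called genes had a promoter entry. Precision is lowest for genes under 1 CPM. Some items are not reported here.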

Additional observations from a re-analysis of the deposited data

Results flagged for a closer look

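In 156 checks of a gene in 1 group of 4 libraries, 14 had a library far from the other 3; chance flags about 1 in 20 such groups. Replicate 1 on 44% fat was the high library for Clu (314 CPM against 79.4 to 113), Lcn2 (18.4 against 0.657 to 1.61), Spp1 (2716 against 1715 to 1816), Upk1a, a uroplakin of the urothelium (9.06 against 1.79 to 2.61), and Serpinb9b (0.0232 against 0). On 10% fat, replicate 1 was low for Fancc (16.6 against 33.8 to 34.9) and Cpn1 (6.78 against 11.1 to 11.8). Replicate 3 was low for Clu (50.2 against 55.8 to 56.8) and high for Slc5a2 (554 against 450 to 464). Replicate 4 was high for Slc12a1 (2293 against 1799 to 1851) and low for Cyp2j5, an epoxygenase of the proximal tubule (203 against 311 to 317). On 44% fat, replicate 2 was low for Shf (2.88 against 3.28 to 3.34), and replicate 3 for Nr1d1 (47.3 against 79.0 to 84.9) and Scnn1b (24.4 against 26.7 to 26.9).

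The response to diet, on the log2 scale, differed by a test of the difference itself between CAST/EiJ females and males for Ugt2b38 (1.24), Slc10a1 (2.23), Iqch (3.02), Slc22a8 (-0.88), Gsto1 (-0.69), Lzts2 (-0.53), Gstt3 (-0.53), Scnn1b (-0.50) and Serpinb9b (-11.04, a fitted value set by the prior count since the gene is near 0). Between CAST/EiJ and C57BL/6J females it differed for Inmt (-2.58).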

How the results depend on the processing

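All 27 called genes kept their direction in 540 of 540 values over 20 alternatives. For the diet effect in CAST/EiJ females (27 calls), limma-voom with sample quality weights gave 101, DESeq2 65, the CAST/EiJ libraries alone 0, the 8 female libraries alone 0 with or without the run term, and leaving out ID runs 77, 81 and 89 gave 45, 8 and 0; leaving out 1 library gave 3 to 74. Fits of the CAST/EiJ libraries alone have fewer degrees of freedom and also take the spread from those libraries only. The part of each in the 0 calls, and the cause of the other shifts, was not tested. For the difference from CAST/EiJ males (9) it was 5 with no filter, 27 with voom, 23 on the deposited matrix, 29 with DESeq2, 0 with CAST/EiJ libraries alone and 0 to 18 with 1 library left out. For that from C57BL/6J females (1) it was 2 on the deposited matrix, 15 with DESeq2 and 0 to 4; for that from NZO/HlLtJ females (0), 1 with no run term, 7 with voom, 29 with DESeq2 and 0 to 3. The difference in mitochondrial share, -0.0875 percentage points, ran from -0.193 to 0.015 with 1 library left out, reversing without replicate 3 on 10% fat. That of the 10 highest genes, -0.820, ran from -1.03 to -0.525. Near-zero values changed sign for Slc22a8, from 0.05 to -0.033 without ID run 81 and from -0.010 (without replicate 3 on 44% fat) to 0.103 with 1 library left out; for Gsto1, which ran from -0.039 (without replicate 4 on 44% fat) to 0.099 and was -0.0088 without replicate 2 on 10% fat; and for Upk1a, which ran from -0.034 (without replicate 1 on 44% fat) to 0.918 and was -0.0028 without ID run 77. No paired analysis was possible because the labels give no replicate numbers; the ID run stands in the fit as a term.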

Other observations

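With replicate 1 on 44% fat left out, 52 genes were called, 21 of them among the 27. The added ones, chosen after their values were seen, include chaperones and foldases of the endoplasmic reticulum: Dnajb11 (log2 0.46, adjusted p = 0.0156 in edgeR), Pdia6 (0.44, adjusted p = 0.0342), Calr (0.46, adjusted p = 0.0353), Pdia3 (0.36, adjusted p = 0.0407) and Pdia4 (0.52, adjusted p = 0.0466). Plin2 (0.52, adjusted p = 0.0464) and Calb1 (0.62, adjusted p = 0.0466) were also called there, and Nr1d1 was called lower (-0.89, adjusted p = 0.0466). With replicate 2 on 10% fat left out, the control with the high chaperone sum, 74 genes were called, 20 of them among the 27. Pdia6 (0.45, adjusted p = 0.0347), Hsp90b1 (0.54, adjusted p = 0.0378) and Nr1d1 (-0.91, adjusted p = 0.0343) were among them, as were Mogat1 (0.65, adjusted p = 0.0457), Vnn1 (0.77, adjusted p = 0.0457) and Inmt (-1.42, adjusted p = 0.0378). Within its diet, replicate 1 on 44% fat had the lowest chaperone sum (4114 CPM) and replicate 2 on 10% fat the highest (8665 CPM). These fits thus leave out the libraries that parted from their diet group in that sum, and their chaperone calls are a description.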
